A study of Drosophila melanogaster with 9 samples.

Results

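The Arp2/3 complex nucleates branched actin. Its actin-related subunits Arp2 and Arp3 start a new filament on the side of an existing one, while the subunits named Arpc hold them together and bind the older filament. The complex is slow on its own and is switched on by SCAR, the fly WAVE protein, which acts with Rac, and by WASp, which acts with Cdc42. In the dendritic arborization (da) neurons, which sense touch and noxious stimuli in the body wall of larvae, the complex is known for starting small dendrite branches, and blood cells are known to need it for their protrusions. The set described here was 8 subunit genes and the 2 activators, matched by current or former symbol to the annotation of the array. Probe sets named for 7 of these 10 genes were found among 11982 named genes, 9 probe sets in all: 6 subunits (Arpc1, Arpc2, Arpc3A, Arpc3B, Arpc4 and Arpc5) and SCAR. Arp2, Arp3 and WASp were not analysed here, because no probe set carried their names in the annotation used.

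Expression was measured on Affymetrix arrays, 1 per sample, in 3 groups of 3 biological replicates. The Kn ME larvae carried UAS-knL:HA, the Ab ME larvae carried UAS-abL, and the Control larvae carried neither. All 3 groups carried the driver GAL4[21-7] with UAS-mCD8:GFP, so misexpression and the membrane marker had the same driver, which the labels assign to every da neuron class. Knot and Abrupt are transcription factors that shape the dendrites of different da classes. Each sample was the sorted GFP-positive cells of 80 body walls from wandering larvae late in the third instar, raised at 25 °C, so every array averages many animals. Values are log2 values made with robust multi-array averaging (RMA). The log base was inferred from their range, the median of all values was 1.54, and a value near it may be background.

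The labelled cell type was checked against marker lists. These lists, like the set and the other gene lists, were chosen with earlier results of these data known. The mean log2 level over 10 neuron markers was 3.82 to 4.05 in Kn ME, 2.99 to 3.27 in Ab ME and 5.24 to 5.98 in Control. That over 15 hemocyte (blood cell) markers was 9.08 to 9.25 in Kn ME, 9.57 to 9.76 in Ab ME and 6.22 to 7.89 in Control, with no marker's group mean below the median of all values. The neuron markers ppk and VAChT lay below that median in Kn ME, and ppk, ppk26 and VAChT in Ab ME. On single arrays, the hemocyte markers PPO1 on Control replicate 2 (1.53) and lz on Control replicate 3 (1.43) lay below it. The mean of the neuron list was lower in both misexpression groups than in Control. In sorted bulk samples fewer cells of a type and less RNA per cell cannot be told apart.

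**Figure D1:**
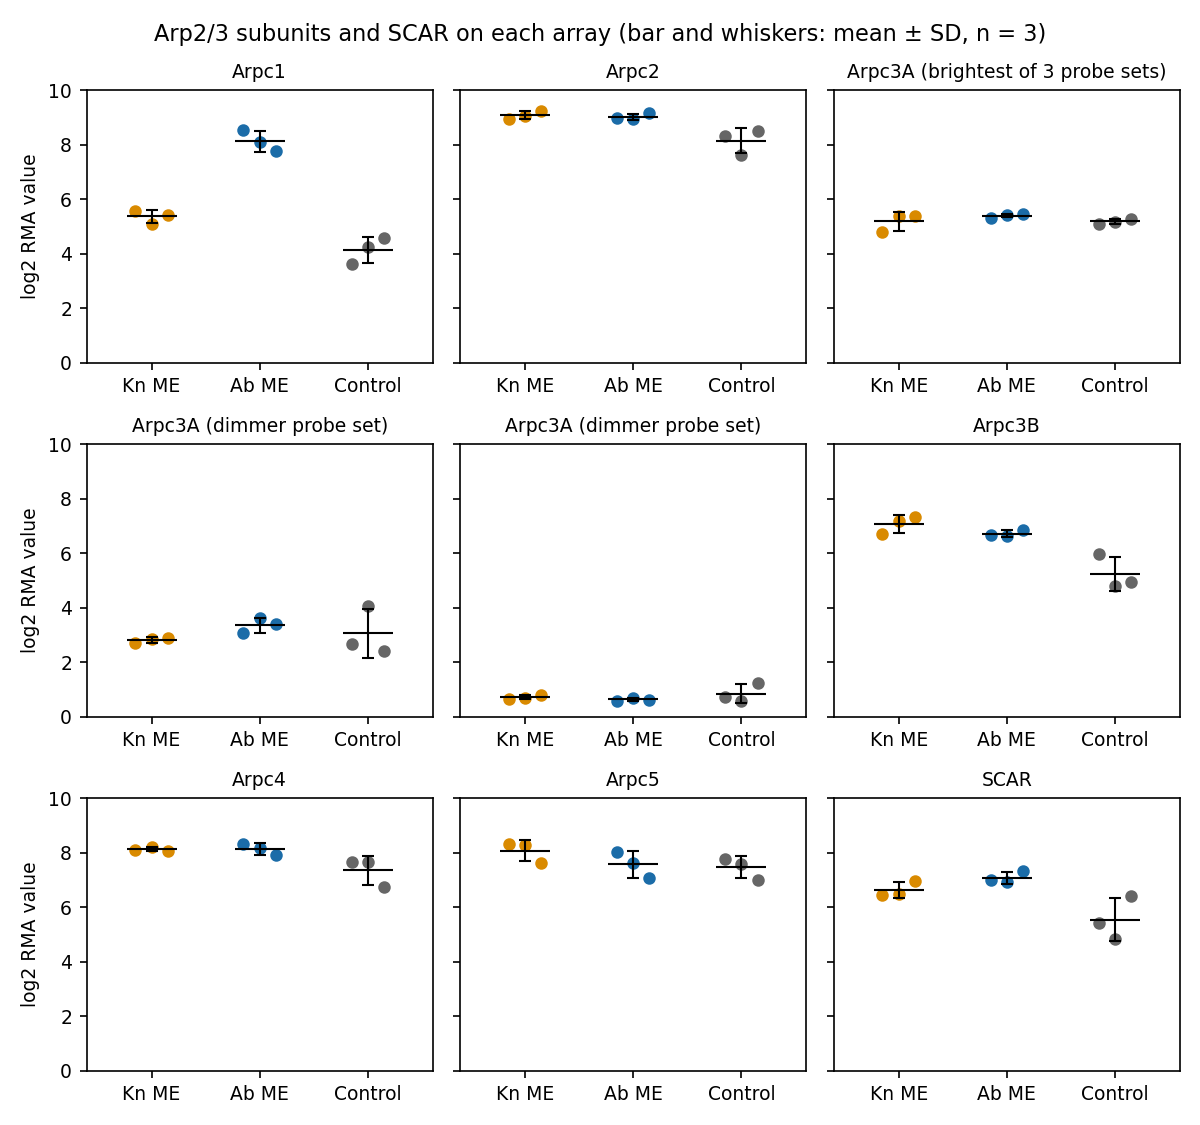
Log2 RMA value (vertical axis) of the 9 probe sets of Arp2/3 subunits and SCAR on each array, by group, with the mean and SD of 3 arrays. Arpc1 in Ab ME, at 7.78 to 8.55, stands above its values in Kn ME and Control, while Arpc2, Arpc3B, Arpc4 and SCAR lie above Control in both misexpression groups.

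Arpc1 gave the largest difference among the 7 genes. It encodes the propeller-shaped subunit that lies between the complex and its activators. Its log2 level was 5.58, 5.11 and 5.44 in Kn ME, 8.55, 8.09 and 7.78 in Ab ME, and 3.63, 4.25 and 4.58 in Control. The 3 groups did not overlap: every Ab ME array was above every Kn ME array, and every Kn ME array above every Control array. Group means were 5.38 ± 0.24 in Kn ME, 8.14 ± 0.39 in Ab ME and 4.15 ± 0.48 in Control (SD, n = 3 each). With ectopic Abrupt Arpc1 rose 15.8-fold (log2 difference 3.99, SE 0.29, 95% interval 3.33 to 4.64, limma adjusted p = 0.00019). This stood at rank 19 when the 11982 named genes were ordered from the largest rise. With ectopic Knot it rose 2.33-fold (log2 difference 1.22, SE 0.29, interval 0.57 to 1.87, limma adjusted p = 0.0463), at rank 706. This rise passed in 4 of 17 alternative fits and did not pass with the replicate number as a block (adjusted p = 0.0813). The arrays of the 2 misexpression groups also differed from each other. Kn ME lay 2.76 log2 units below Ab ME (difference -2.76, SE 0.29, interval -3.41 to -2.11, limma adjusted p = 0.00693), at rank 11975 of 11982. Both differences from Control use the same 3 Control arrays. The name of the Arpc1 probe set ends in _s_at, which Affymetrix uses for probes that can match more than 1 transcript, and no second probe set was named for the gene.

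With ectopic Abrupt, 4 of the 7 genes rose (Arpc1, Arpc2, Arpc3B and SCAR) and 0 fell, against 11.2% higher and 5.96% lower of the 11982 named genes (limma, adjusted p under 0.05). At an unadjusted p under 0.05, 5 were higher and 0 lower, against 21.6% and 13.3% of named genes. The median difference of the 7 was 0.87 log2 units, beside -0.006 over all named genes. All 3 Ab ME arrays lay above all 3 Control arrays for 6 of the 7, against 21.4% of named genes. With ectopic Knot, 2 of the 7 rose (Arpc1 and Arpc3B) and 0 fell, against 4.18% higher and 2.32% lower (at an unadjusted p under 0.05, 5 higher and 0 lower, against 14.3% and 8.91%). The median difference was 0.93 log2 units, beside 0.002 over all named genes, and 5 of the 7 did not overlap and were higher, against 13.5%. Between Kn ME and Ab ME, 1 of the 7 fell (Arpc1) and 0 rose, against 0.309% lower and 0.292% higher (at an unadjusted p under 0.05, 0 higher and 1 lower, against 4.18% and 6.08%), with a median of -0.01 beside -0.004. Over all 18769 probe sets, 14% passed in either direction in Ab ME, 5.29% in Kn ME, both against Control, and 0.517% in Kn ME against Ab ME. All these shares include dim probe sets, while every group mean of the 7 genes lay above the median of all values. With only probe sets above that median tested, 2777 passed in Ab ME and 1157 in Kn ME, against 2622 and 992 of all 18769. Fewer were tested, so a larger share passed. For the limma calls against Control, the shares of named genes are therefore a low yardstick for the set.

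**Figure D2:**
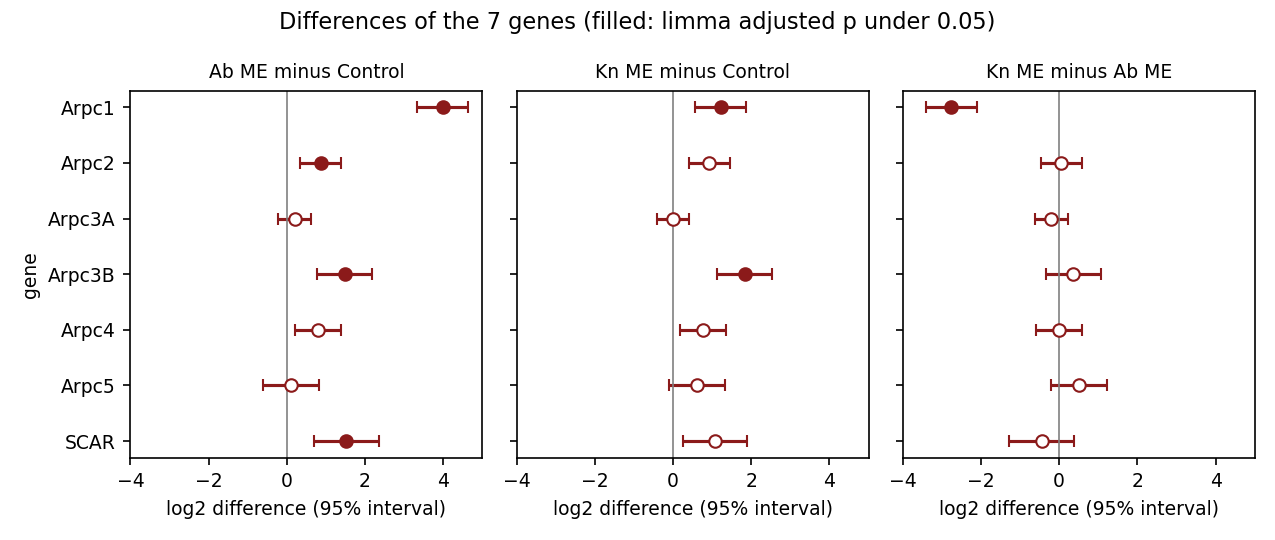
Log2 differences (horizontal axis) of the 7 genes with 95% intervals from the fit over 9 arrays, in 3 comparisons; filled points passed at an adjusted p under 0.05. Arpc1 stands apart in Ab ME minus Control (3.99) and in Kn ME minus Ab ME (-2.76). Only in Kn ME minus Ab ME do the intervals of all the other 6 genes include 0.

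Arpc2 and Arpc4 form the core of the complex that grips the older filament. The log2 level of Arpc2 was 8.96, 9.06 and 9.24 in Kn ME, 8.98, 8.94 and 9.17 in Ab ME, and 8.32, 7.63 and 8.53 in Control. Every array of both misexpression groups was above every Control array. Arpc2 rose 1.83-fold in Ab ME (log2 difference 0.87, SE 0.23, limma adjusted p = 0.0395). In Kn ME the difference was as large, 0.93 (SE 0.23, interval 0.41 to 1.45), but did not pass (adjusted p = 0.0557). Arpc4 was at 8.12, 8.22 and 8.07 in Kn ME, 8.33, 8.18 and 7.93 in Ab ME, and 7.69, 7.66 and 6.74 in Control, again with no overlap with Control. It lay 0.79 log2 units above Control in Ab ME (limma adjusted p = 0.0777) and 0.78 in Kn ME (adjusted p = 0.132; SE 0.26 each), and did not pass. For Kn ME minus Ab ME, neither Arpc2 (0.06, interval -0.47 to 0.58) nor Arpc4 (-0.01, interval -0.60 to 0.57) passed.

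The paralogs Arpc3A and Arpc3B encode alternative forms of 1 subunit, which links Arp3 to the rest of the complex, and their values differed. Arpc3B was at 6.70, 7.20 and 7.32 in Kn ME, 6.66, 6.62 and 6.86 in Ab ME, and 5.96, 4.81 and 4.94 in Control. All 6 misexpression arrays were above the 3 Control arrays. It rose 2.78-fold in Ab ME (log2 difference 1.48, SE 0.31, interval 0.77 to 2.18, limma adjusted p = 0.0163) and 3.57-fold in Kn ME (1.84, SE 0.31, interval 1.13 to 2.54, adjusted p = 0.0151). In Kn ME this was the largest difference of the set, at rank 217 of 11982. Kn ME and Ab ME did not differ past the threshold (0.36, interval -0.34 to 1.06, adjusted p = 0.879).

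Arpc3A had 3 probe sets, and none passed in any comparison. The brightest was at 4.79, 5.39 and 5.40 in Kn ME, 5.33, 5.41 and 5.45 in Ab ME, and 5.10, 5.18 and 5.29 in Control. The Ab ME arrays lay just above those of Control, by a mean of 0.20 (interval -0.21 to 0.62, limma adjusted p = 0.482), and Kn ME overlapped both groups (0.001 against Control, interval -0.42 to 0.42, adjusted p = 0.998). The middle probe set differed by 0.30 in Ab ME and -0.24 in Kn ME, with a wide spread in Control (2.68, 4.07 and 2.43). The dimmest stayed between 0.57 and 1.25 on all 9 arrays, below the median of all values, where a difference could not be seen. In Ab ME the interval of Arpc3A ended below that of Arpc3B, and likewise in Kn ME. Whether the paralogs differed in their response was not tested as such.

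Arpc5, a small subunit beside Arpc1 and Arpc4, passed in no comparison. Its log2 level was 8.34, 8.29 and 7.63 in Kn ME, 8.04, 7.62 and 7.08 in Ab ME, and 7.79, 7.61 and 7.02 in Control. The groups overlapped in every comparison. The difference was 0.11 in Ab ME (SE 0.31, interval -0.61 to 0.83, limma adjusted p = 0.846) and 0.61 in Kn ME (SE 0.31, interval -0.10 to 1.33, adjusted p = 0.329). Within each group Arpc5 was lowest on replicate 3, and by more than the difference between the Ab ME and Control means. With the replicate number as a block, limma adjusted p was 0.0557 in Kn ME and 0.632 in Ab ME.

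SCAR, the activator in the set, brings Rac signalling to the complex. Its log2 level was 6.44, 6.49 and 6.96 in Kn ME, 6.99, 6.92 and 7.33 in Ab ME, and 5.42, 4.84 and 6.40 in Control. No misexpression array overlapped Control, although the lowest Kn ME array exceeded the highest Control array by little. SCAR rose 2.88-fold in Ab ME (log2 difference 1.53, SE 0.36, interval 0.70 to 2.35, limma adjusted p = 0.0274). The difference in Kn ME, 1.08 (SE 0.36, interval 0.25 to 1.90), did not pass (adjusted p = 0.139). Nor did that between Kn ME and Ab ME, -0.45 (interval -1.28 to 0.38, adjusted p = 0.864).

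The calls were also read in fits without 1 array. Any such fit has fewer arrays, so a lost call alone does not show dependence on the array left out. Without Ab ME replicate 1, 2 or 3, the probe sets past the threshold in Ab ME fell from 2622 to 1426, 1407 and 1400. Without Kn ME replicate 1, 2 or 3, those in Kn ME fell from 992 to 409, 347 and 532. In Ab ME Arpc1 passed under all 17 alternatives, fits without 1 array included, with adjusted p up to 0.0028. Arpc3B did not pass without any 1 of the Ab ME arrays (adjusted p = 0.0525, 0.0504 and 0.0633). SCAR did not pass without Control replicate 1 (0.0539) or 2 (0.0510), or without Ab ME replicate 1, 2 or 3 (0.0739, 0.0678 and 0.0971). Arpc2 did not pass without any 1 Ab ME array (0.0996, 0.0907 and 0.129) or any 1 Kn ME array (0.0594, 0.0621 and 0.0569). Without 1 Ab ME array the log2 difference was 1.4042 to 1.5227 for Arpc3B, 1.4 to 1.6075 for SCAR and 0.7997 to 0.9167 for Arpc2. The main fit gave 1.4763, 1.5253 and 0.8707. Without Control replicate 2 that of SCAR was 1.1663. Without any 1 Kn ME array the Arpc2 difference in Ab ME was unchanged at 0.8707. In Kn ME Arpc1 passed without Control replicate 3 and without none of the other 8 arrays (adjusted p 0.0549 to 0.148), and Arpc3B did not pass without Kn ME replicate 2 (0.0614) or 3 (0.0525). Without Control replicate 3, Arpc2 (0.0321) and SCAR (0.0196) passed in Kn ME. The fall of Arpc1 in Kn ME against Ab ME passed without any 1 array, as it did under all 17 alternatives, with adjusted p of 0.00149 to 0.0495.

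Other genes of branched actin assembly were read from lists of partners, inhibitors and turnover factors. Of 48 genes listed, 31 had a named probe set. With ectopic Abrupt 7 of these 31 rose and 2 fell, against 11.2% higher and 5.96% lower of named genes, with a median of 0.64 log2 units. At an unadjusted p under 0.05, 17 were higher and 3 lower, against 21.6% and 13.3%. With ectopic Knot 2 rose and 1 fell, near the 4.18% higher and 2.32% lower of named genes, with a median of 0.78. At an unadjusted p under 0.05, 15 were higher and 1 lower, against 14.3% and 8.91%. The counts of the single lists, each of few genes, stand against the same shares, which include dim genes. Between Kn ME and Ab ME 0 of 31 passed limma, against 0.292% higher and 0.309% lower of named genes, with a median of -0.08. At an unadjusted p under 0.05, 1 was higher and 1 lower, against 4.18% and 6.08%. With shares this low, 0 of 31 does not set these genes apart.

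**Figure D3:**
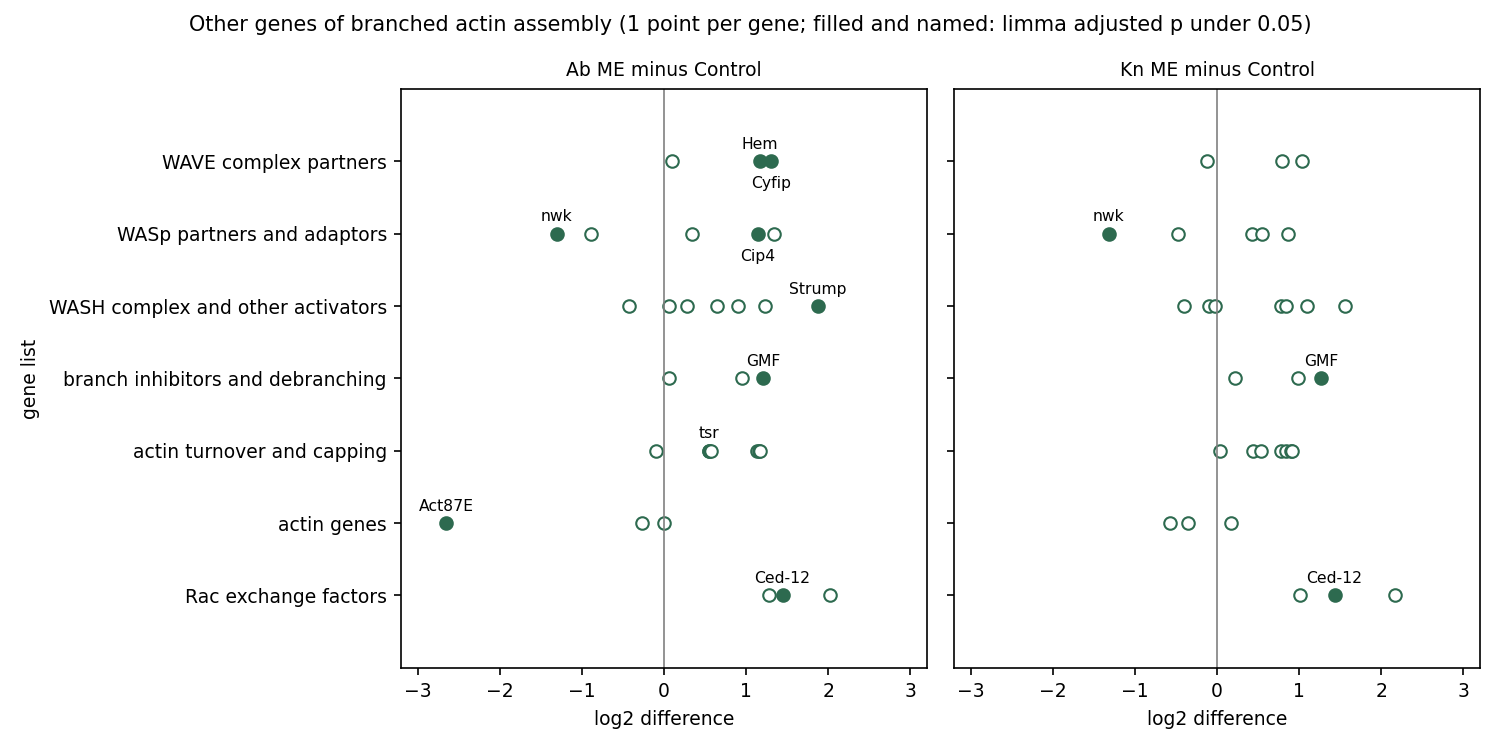
Log2 differences from Control (horizontal axis) of 31 genes in 7 lists, 1 point per gene, for Ab ME and Kn ME; filled, named points passed at an adjusted p under 0.05. Most points lie right of 0 in both panels, and GMF, Ced-12 and nwk are named in both.

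SCAR works in a complex with Cyfip (also called Sra-1), Hem, Abi and HSPC300, of which 3 were measured. In Ab ME 2 of the 3 rose. Cyfip, the Rac-binding partner, was at 7.69, 7.43 and 7.88 in Ab ME, against 6.56, 5.60 and 6.94 in Control (log2 difference 1.30, SE 0.32, limma adjusted p = 0.0326). Hem, its neighbour in the complex, was at 5.83, 6.02 and 6.43 in Ab ME, against 5.57, 4.21 and 5.01 in Control (1.16, SE 0.32, adjusted p = 0.0477). Neither pair of groups overlapped. In Kn ME 0 of 3 passed, with differences of 0.79 for Cyfip and 1.04 for Hem (limma adjusted p = 0.221 and 0.113; 2 higher at an unadjusted p under 0.05). Hem passed in 5 of 17 alternatives and was lost after quantile normalization (adjusted p = 0.106), with the trend and robust prior (0.0514), with array weights (0.0632) and with only the 6 arrays compared (0.108). Cyfip passed in 11 of 17 and was lost after quantile normalization (0.0573) and with the 6 arrays (0.0777). Both calls in Ab ME were lost without any 1 Ab ME array (adjusted p 0.0658 to 0.155). Without Kn ME replicate 2 Cyfip did not pass either (0.0527), nor did Hem without Control replicate 2 (0.0741) or 3 (0.0795) or any 1 Kn ME array (0.0692 to 0.073), while in Kn ME Hem passed without Control replicate 1 (0.0259).

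Among 5 measured partners of WASp, 1 rose and 1 fell in Ab ME (2 higher and 2 lower at an unadjusted p under 0.05). Cip4, a membrane-bending F-BAR protein, was at 8.65, 8.83 and 8.08 in Ab ME, against 7.59, 7.45 and 7.09 in Control (log2 difference 1.14, SE 0.24, limma adjusted p = 0.0161). The groups did not overlap, but the call was lost without Ab ME replicate 1 (0.0632) or 2 (0.0614) and after quantile normalization (0.0625). The brighter probe set of nwk, an F-BAR and SH3 protein of synapses, fell in both groups. It was at 0.56, 0.72 and 0.68 in Kn ME, 0.70, 0.79 and 0.50 in Ab ME, and 1.87, 1.60 and 2.45 in Control (Kn ME -1.32, adjusted p = 0.0139; Ab ME -1.31, adjusted p = 0.00583). The misexpression values lie below the median of all values, so the size of the fall is uncertain. A dimmer nwk probe set did not pass (-0.52 in Kn ME and -0.21 in Ab ME), and in Kn ME the call was lost without Kn ME replicate 1 (0.0552) or 2 (0.0507).

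Of 7 genes of the WASH complex and other activators, 1 rose in Ab ME and 0 fell (4 higher and 0 lower at an unadjusted p under 0.05). Strump, the strumpellin subunit of WASH, which activates Arp2/3 on endosomes, was at 4.92, 4.35 and 4.60 in Ab ME, against 3.29, 1.39 and 3.57 in Control. The groups did not overlap (log2 difference 1.87, SE 0.53, limma adjusted p = 0.0496). The call was lost without any 1 Ab ME array (0.101 to 0.145) or any 1 Kn ME array (0.0653 to 0.075), after quantile normalization (0.134) and with only the 6 arrays compared (0.102). In Kn ME the difference of 1.55 did not pass (adjusted p = 0.142).

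GMF, which in yeast and mammals dissolves branches by binding Arp2/3, rose in both groups. It was at 7.68, 8.13 and 7.65 in Kn ME, 7.87, 7.76 and 7.66 in Ab ME, and 6.54, 6.70 and 6.42 in Control. Both groups lay well clear of the highest Control array. The differences were 1.26 in Kn ME (SE 0.17, limma adjusted p = 0.00631) and 1.21 in Ab ME (SE 0.17, adjusted p = 0.0029), and both passed under all 17 alternatives. The 2 other inhibitors measured did not pass, with differences of 0.06 to 0.98 over both groups.

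Ced-12, the ELMO partner of a Rac exchange factor, gave the smallest p of the 31 in both groups. It was at 6.64, 6.26 and 6.61 in Kn ME, 6.56, 6.38 and 6.60 in Ab ME, and 5.15, 5.05 and 5.01 in Control. The differences were 1.43 in Kn ME (SE 0.15, limma adjusted p = 0.00266) and 1.44 in Ab ME (SE 0.15, adjusted p = 0.000755), and passed under all 17 alternatives. Kn ME and Ab ME differed by -0.01 (interval -0.35 to 0.33). The 2 other exchange factors measured did not pass, with differences of 1.02 to 2.17.

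Of 7 turnover and capping genes, 1 rose in Ab ME, a share close to the 11.2% of all named genes, and 0 in Kn ME. At an unadjusted p under 0.05, 4 of the 7 were higher in Kn ME and 4 in Ab ME. The gene was tsr, which encodes cofilin, the protein that severs older filaments, at 12.25, 12.20 and 12.13 in Ab ME, against 11.91, 11.54 and 11.50 in Control. The difference was small (0.55 log2 units, SE 0.15, limma adjusted p = 0.0415) and passed in 4 of 17 alternatives, not after quantile normalization (0.221). Without Control replicate 2 or 3, or any 1 array of Ab ME or Kn ME, adjusted p was 0.0622 to 0.128; in Kn ME tsr passed without Control replicate 1 (0.0391). Of 3 actin genes measured, Act87E, a muscle actin, fell in Ab ME and 0 rose. It was at 3.15, 4.25 and 4.29 in Ab ME, against 5.71, 7.21 and 6.73 in Control (log2 difference -2.65, SE 0.42, limma adjusted p = 0.00498). In Kn ME it was at 6.04, 5.80 and 6.10 and overlapped Control (-0.57, adjusted p = 0.504). For Kn ME minus Ab ME the Act87E difference of 2.09 missed the threshold (limma adjusted p = 0.0932) and passed in 4 of 17 alternatives: with array weights (0.0251), without Control replicate 1 (0.0404), with only the 6 arrays compared (0.0437) and with dim probe sets left out (0.0461).

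Marker lists of neurons and of other cells also differed between the groups. Their limma counts stand against 4.18% higher and 2.32% lower of named genes in Kn ME, and 11.2% and 5.96% in Ab ME. For Kn ME against Ab ME the shares were 0.292% higher and 0.309% lower. These shares include dim genes. Arrays lay above Control without overlap for 13.5% of named genes in Kn ME and 21.4% in Ab ME. Of 15 hemocyte markers 8 rose in Kn ME and 15 in Ab ME against Control, with median differences of 1.90 and 2.13 log2 units, and 0 fell (limma). All 15 lay above Control without overlap in both groups, and in Kn ME against Ab ME 0 passed (3 lower at an unadjusted p under 0.05, median -0.47). Without overlap, 9 of the 15 were lower in Kn ME than in Ab ME, against 1418 of the 11982 named genes. A dimmer probe set of the marker Pxn, not counted here, averaged 2.38 in Kn ME, 4.48 in Ab ME and 1.58 in Control. It did fall in Kn ME against Ab ME (-2.10, limma adjusted p = 0.00177). Neuron markers fell in 5 of 10 genes in Kn ME and 7 of 10 in Ab ME (9 lower in each at an unadjusted p under 0.05). Of these 10, 1 was higher in Kn ME than in Ab ME, ppk26 (3.66, limma adjusted p = 0.017). At an unadjusted p under 0.05, 4 of the 10 were higher and 0 lower, against 4.18% and 6.08% of named genes. Muscle markers fell in 0 of 8 in Kn ME (1 lower at an unadjusted p under 0.05) and 6 of 8 in Ab ME. In Kn ME against Ab ME 3 of these 8 were higher (6 higher and 0 lower at an unadjusted p under 0.05). Proliferation markers rose in 2 of 5 genes in Kn ME and 5 of 5 in Ab ME. In Kn ME against Ab ME 0 of the 5 passed limma, but all 5 were lower at an unadjusted p under 0.05 and without overlap (median -1.18). Of named genes, 6.08% were lower at that level. Glia markers fell in 2 of 6 in Kn ME (4 lower and 1 higher at an unadjusted p under 0.05) and 3 of 6 in Ab ME. The glia marker Inx2 was higher in Kn ME than in Ab ME (1.65, limma adjusted p = 0.03). At an unadjusted p under 0.05, 3 of the 6 glia markers were higher and 0 lower in that comparison. Epidermis and cuticle markers fell in 2 of 6 in Kn ME and 3 of 6 in Ab ME. In Kn ME against Ab ME 0 of these 6 passed limma (2 higher and 0 lower at an unadjusted p under 0.05). The hemocyte level on Control replicates 1, 2 and 3 was 7.89, 6.81 and 6.22. Arpc3B, Arpc4 and Arpc5 were highest on Control replicate 1, Arpc4 by little (7.69, against 7.66 on replicate 2). Arpc4 and Arpc5 were lowest on Control replicate 3. Arpc1 and Arpc3A were lowest on Control replicate 1, and Arpc1, Arpc2, Arpc3A and SCAR were highest on Control replicate 3. An order over 3 arrays carries little weight, and no link between these orders was tested. The part of these other cells in the rises of Arpc1, Arpc2, Arpc3B, SCAR and their partners was not tested. In these sorted bulk samples a change in the mix of cells cannot be told apart from a change within the neurons.

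**Figure D4:**
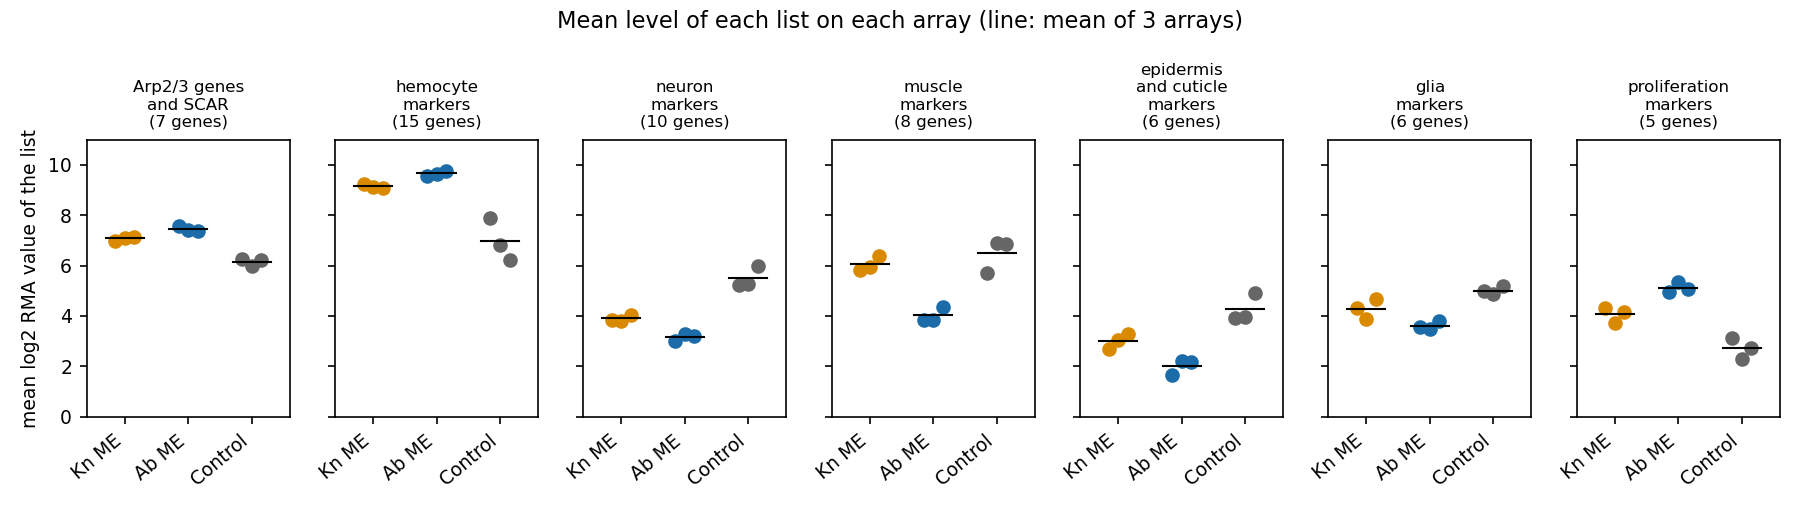
Mean log2 RMA value (vertical axis) over the 7 genes of the set and over 6 marker lists, 1 point per array, with a line at the mean of 3 arrays. The set and the hemocyte markers are higher in Kn ME and Ab ME than in Control, and the neuron markers are lower.

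The genes with a pattern most like that of Arpc1 were sought by distance. Each named gene was centred on its own mean over the 9 arrays, and the root mean square distance to Arpc1 was taken. The closest were agt, a DNA repair methyltransferase (0.36 log2 units), the cytochrome P450 gene Cyp6a13 (0.61), CG12116 (0.63), the lipophorin receptor gene LpR2 (0.66) and shu, a gene of the piRNA pathway (0.66). The median over all named genes was 1.72. The first of them, agt, was at 2.66, 2.21 and 2.98 in Kn ME, 5.20, 5.05 and 4.89 in Ab ME, and 1.27, 2.02 and 1.42 in Control. As for Arpc1, its Ab ME arrays stood well above the rest, with Kn ME between them and Control. On Control replicates 1 and 3, however, agt lay below the median of all values, where Arpc1 did not. CG12116 averaged 1.17 in Kn ME and 1.16 in Control, both below that median, so it showed no level between the groups. Of the other 6 genes of the set, SCAR stood at rank 546 (1.22), Arpc2 at 2202 (1.46), Arpc3B at 2411 (1.48), Arpc4 at 2576, Arpc3A at 4041 (1.62) and Arpc5 at 7484 (1.77). The distance uses unscaled values, so it also ranks genes by the size of their differences, and Arpc5 was the one gene of these 6 beyond the median of all named genes.

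**Figure D5:**
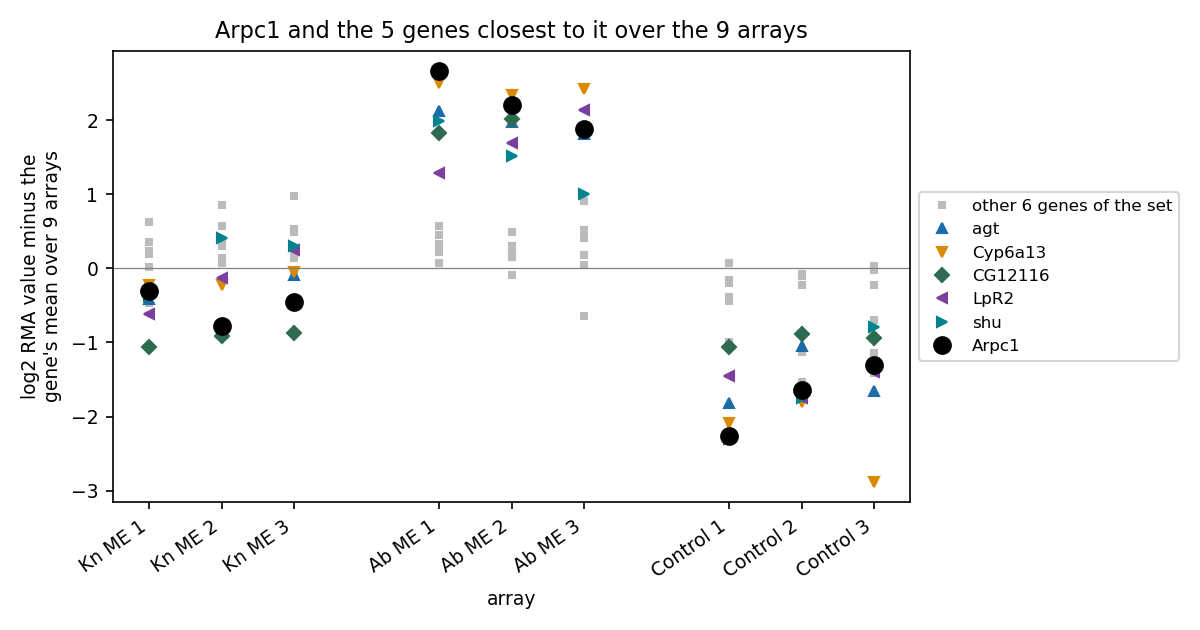
Log2 RMA value minus the gene's own mean over 9 arrays (vertical axis) on each array, for Arpc1 (black), its 5 closest genes (coloured) and the other 6 genes of the set (grey). Arpc1 and the 5 genes are high in Ab ME, while the 6 grey genes differ by -0.45 to 0.51 between Kn ME and Ab ME.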

How the data were processed

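The members and gene lists were chosen with earlier results of these data known. The authors deposited 1 table of log2 values, computed by RMA according to the submitters' processing notes (per the labels); the sources used here give no version or log base. RMA normalizes arrays to each other and compresses differences between dim probe sets. Of 18952 probe sets, 183 controls were left out and 18769 tested. Of these, 13647 had 1 gene symbol, brought to current symbols through the gene identifier with RefSeq genes (assembly Release 6 plus ISO1 MT; 13544 matched), 402 had several and 4720 none. The brightest probe set stood for its gene. Correlation of replicates over probe sets was r = 0.974 to 0.977 in Kn ME, 0.984 to 0.985 in Ab ME and 0.930 to 0.944 in Control, and no 2 arrays were identical. Precision is limited by the number of arrays; scanner output, detection calls and dates were not used here.

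All 9 arrays entered 1 linear model of the group means in limma 3.58.1 in R 4.3.3 (6 residual and 2.44 prior degrees of freedom), with 2-sided moderated tests and Benjamini-Hochberg adjustment over the 18769 probe sets at a threshold of 0.05. The script was tested on simulated data. All members are named, and of each other list the genes past the threshold in any comparison. A list of 5 genes is not reported here. The closing section gives the 17 alternatives per result: 8 changes of normalization, filter, prior, weights, arrays, probe set rule or replicate block, and 9 fits without 1 array. Deviations of same-numbered arrays of different groups correlated at r = 0.034 to 0.272, most on replicate 3 (0.211 to 0.272). Differently numbered arrays gave r = -0.198 to 0.087. Replicate numbers were not taken as pairs in the main fit, and the replicate block is among the alternatives. A shared effect of the replicate number was not tested as such.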

Additional observations from a re-analysis of the deposited data

How the results depend on the processing

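The differences of Arpc1 in Ab ME against Control and in Kn ME against Ab ME kept their direction and call under all 17 alternatives; 8 of the 21 results of the set did so. With only the 6 arrays compared, the count of genes of the set past the threshold was 2 in Ab ME and 0 in Kn ME against Control, and of probe sets 1726 (against 2622), 337 (against 992) and, for Kn ME against Ab ME, 241 (against 97). The count of the set in Kn ME was 1 after quantile normalization and 1 with array weights. Array weights gave 589 probe sets in Kn ME against Control and 326 in Kn ME against Ab ME, and the filter on dim probe sets 149 in the last. Leaving out 1 array gave 1 to 4 genes of the set in Ab ME, 0 to 4 in Kn ME and 1 in Kn ME against Ab ME, and 1400 to 3249, 347 to 1609 and 26 to 139 probe sets. Centring shifted the median over all probe sets by 0.17 in Ab ME and 0.11 in Kn ME against Control; centred, Arpc4 passed in Ab ME (adjusted p = 0.0358) and Arpc2 in Kn ME (0.0423). Calls were higher in 62.4% as deposited, 49.6% after quantile normalization and 76.2% after centring in Ab ME, in 63.1%, 48.1% and 72.4% in Kn ME, and in 51.5%, 62.0% and 45.3% in Kn ME against Ab ME. After quantile normalization Arpc2 did not pass in Ab ME (0.111), nor Arpc1 in Kn ME (0.140), and of the 7 other actin assembly genes that rose in Ab ME, Cyfip, Hem, Cip4, Strump and tsr did not pass (adjusted p 0.0573 to 0.221). The mean of all probe sets of a gene changed no call of the set. With the replicate block the counts of the set were 4, 2 and 1, and those of probe sets 2778, 1078 and 119; in Kn ME Arpc1 did not pass (0.0813) and Arpc2 did (0.0459), and in Ab ME tsr did not (0.0543). The cause of these changes was not tested.

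Directions that turned were those of differences that did not pass. In Ab ME against Control, Arpc3A was -0.17 and Arpc5 -0.14 after quantile normalization, and Arpc5 ranged from -0.12 to 0.36 over fits without 1 array. In Kn ME against Control, Arpc3A was -0.24 after quantile normalization, -0.023 with array weights and -0.13 for the mean of its probe sets, and ranged from -0.10 to 0.20 without 1 array. In Kn ME against Ab ME, Arpc2 was -0.0043 and GMF -0.0077 after centring, and Arpc4 0.11, tsr 0.054 and Ced-12 0.0805 after quantile normalization. Without 1 array these ranged from -0.0205 to 0.13 for Arpc2, -0.12 to 0.0823 for Arpc4, -0.26 to 0.043 for Hem, -0.0913 to 0.0517 for nwk, -0.10 to 0.14 for GMF and -0.0785 to 0.11 for Ced-12. The filter on dim probe sets removed nwk, which has no value there.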

Other observations

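Arpc1 was also set beside the genes next to it in the gene table, a look chosen after its values were seen. The 6 nearest measured genes, 3 on each side, were CG16888, Sos, PolG1, Orc5, mRpS23 and CenG1A. Of these, 0 passed limma in Ab ME or Kn ME against Control or between them. Of the 11982 named genes, 9925, 11203 and 11910 did not pass either, in that order. At an unadjusted p under 0.05 the neighbours numbered 3 (Sos and mRpS23 higher, CenG1A lower), 1 (mRpS23, higher) and 1 (CenG1A, higher). The same counts over named genes were 4178, 2781 and 1230. With only 6 genes, these counts do not set the neighbours apart. Their differences in Ab ME ran from -1.25 (CenG1A) to 1.36 (mRpS23), beside 3.99 for Arpc1.

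Differences were small for 2 other genes of actin assembly, picked after their values were seen. The profilin gene chic averaged 11.33 ± 0.24 in Kn ME, 11.20 ± 0.23 in Ab ME and 11.29 ± 0.19 in Control (SD, n = 3 each), with 95% intervals of -0.39 to 0.47 in Kn ME and -0.53 to 0.33 in Ab ME for the log2 difference from Control. The coronin gene coro, an actin-binding protein that in other species counteracts Arp2/3, averaged 7.92 ± 0.32 in Kn ME, 7.76 ± 0.14 in Ab ME and 7.70 ± 0.12 in Control, with intervals of -0.20 to 0.65 and -0.36 to 0.48.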
